A study of Drosophila melanogaster with 16 samples.

Results

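Neuronal excitability, GABA and synapse genes were followed in heads of Drosophila females fed pentylenetetrazole (PTZ), a proconvulsant. The list held 52 genes: 23 ion channels, 8 genes of GABA reception and handling, 15 genes of vesicle release, and 6 neuronal marker and acetylcholine genes. Members were the listed genes that the array's annotation names, and 24 of the 52 were found. The whole table names 6793 genes, and with unnamed pairs of spots it holds 13059 features.

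RNA of PTZ flies and of flies on normal food (NF) was hybridised together on 2-colour cDNA arrays, 16 in all. The flies were Oregon-R wild type virgin females, 3 to 4 days old at the start, kept 30 to a vial. The PTZ groups had 8 mg/ml of the drug in their food for 12 hrs, 2 days or 7 days, and NF flies kept alongside were their controls. The 14th day group had PTZ for 7 days and then NF for another 7 days, against flies that were on NF throughout. Each time point had 4 arrays, and each array set 1 pool of PTZ heads against 1 pool of NF heads from the same parallel set of vials. The study calls the 4 sets biological replicates. In replicates 1 and 2 PTZ RNA carried Cy5, and in replicates 3 and 4, the dye swaps, it carried Cy3. For 7th day replicate 4 the labels disagreed. The title put it at the 7th day, but the treatment text described a later move to normal media. It was kept with the 7th day, and values without it are given below.

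Every value below is a log2 ratio of PTZ over NF, centred on the median of its array, so 0 stands for the median gene of that array. Negative values mean less signal in PTZ than in NF heads, relative to that median gene. Ratios of this kind carry no level, so genes cannot be ordered by abundance. Whole heads were used, and fewer cells of a type and less RNA per cell cannot be told apart.

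PTZ blocks GABA-gated chloride channels, through which GABA, the main inhibitory transmitter, quiets neurons. The firing of a neuron rests on sodium and calcium channels that depolarise it and on potassium channels that repolarise it or hold it at rest. Transmitter then leaves the neuron through vesicles that are docked and primed, fuse by SNARE proteins and are recovered by endocytosis. In flies, mutants of several of these genes shake, seize or become paralysed.

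Values were present on 4282 to 10402 features per array and on 6 to 22 of the 24 members. The lowest count of members was on 12 hrs replicate 4 and the highest on 14th day replicate 1. A gene was tested at a time point where at least 3 of the 4 arrays gave a value. This left 12 members at 12 hrs, 13 on the 2nd day, 15 on the 7th day and 15 on the 14th day. As shares of the 24 these were 50%, 54.2%, 62.5% and 62.5%, against 44.1%, 41.5%, 55.8% and 49.5% of all features.

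**Figure D1:**
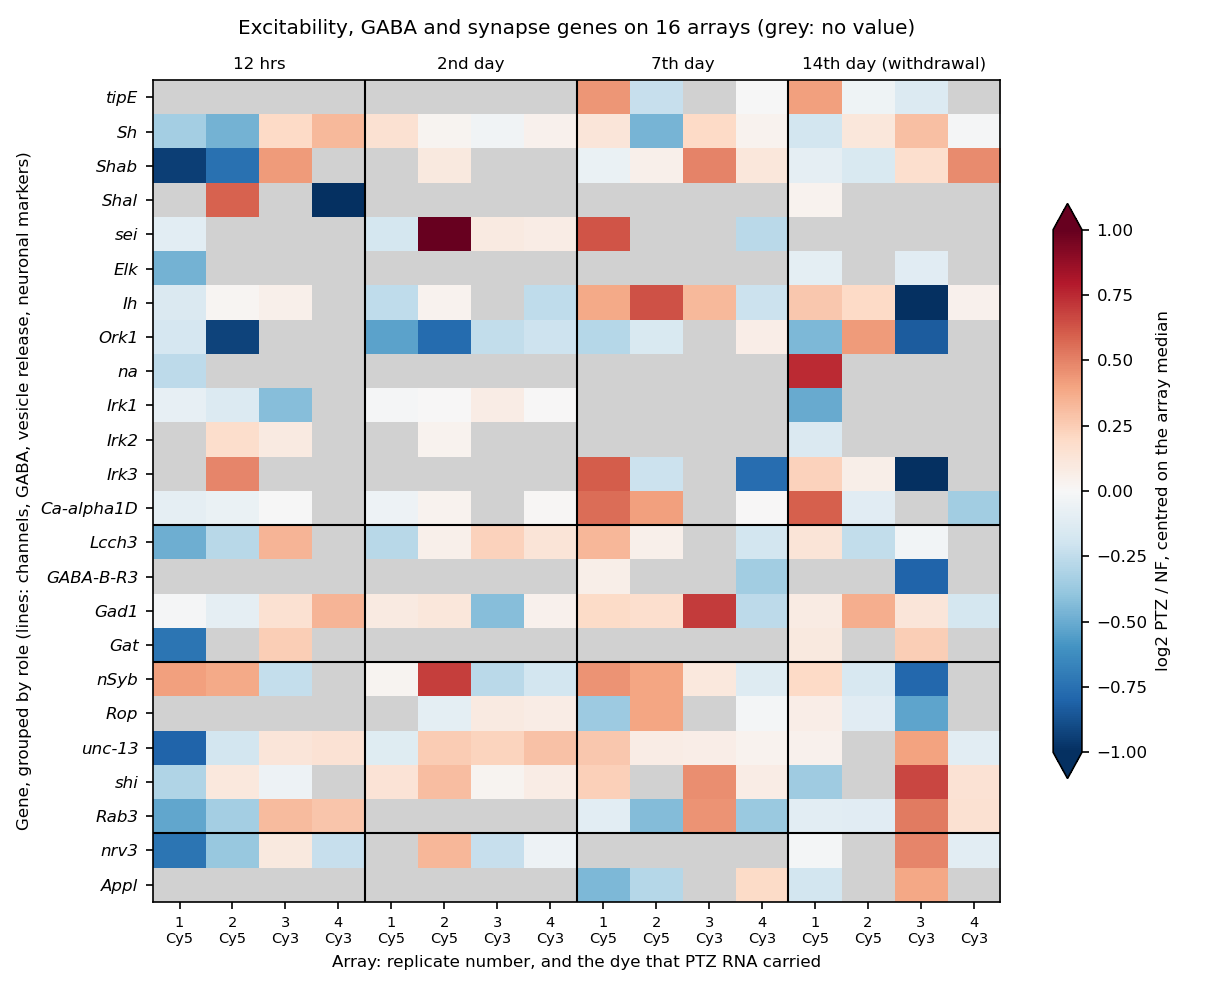
Log2 PTZ over NF of the 24 members (rows, grouped by role) on the 16 arrays (columns, with the dye of the PTZ RNA); red is higher and blue lower than the array median, the colour scale ends at 1 log2 unit, and grey means no value. Grey cells fill most of the rows of Shal, Elk, na and Irk2, and on 14th day replicate 3 the cells of Ih and Irk3 are at -1.11 and -1.06.

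The 4 time points and 4 differences between them were examined by limma, and no member passed in any of them at an adjusted p under 0.19, the highest false discovery rate used in the study. The counts were 0 of 12 members at 12 hrs, 0 of 13 on the 2nd day, 0 of 15 on the 7th day and 0 of 15 on the 14th day. Over all features the called shares were 0.0%, 0.222%, 0.0% and 0.0%, so limma called few features at any time point. SAM, a one-class test built on sign changes of the arrays, also called 0 members at each time point, against 0.0174%, 0.369%, 0.0% and 0.0% of all features. The paper's own SAM run, with its own normalization and filters, listed more genes on the 2nd and 7th day, most of them lower in PTZ. Why the counts differ was not tested. At an unadjusted limma p under 0.05 there was 1 member, Ork1 on the 2nd day. The counts at that p were 0 of 12, 1 of 13, 0 of 15 and 0 of 15, and the shares of all features were 2.34%, 4.82%, 8.4% and 2.18%. The share of members on the 2nd day, 7.69%, rests on this 1 gene. A gene that missed the threshold is not shown to be unmoved: the 95% limits of a member reached, at the median, to either side of its mean by 0.38 log2 units at 12 hrs, 0.25 on the 2nd day, 0.38 on the 7th day and 0.46 on the 14th day.

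**Figure D2:**
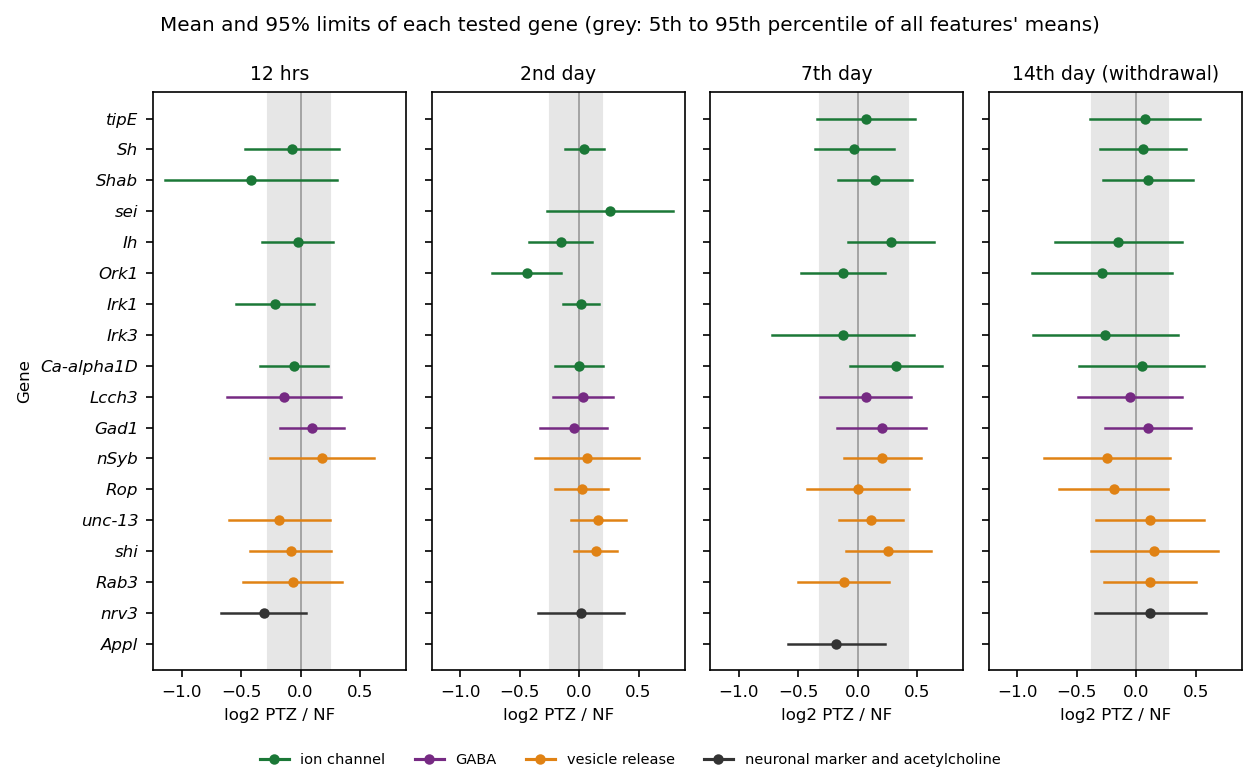
Mean log2 PTZ over NF of each tested member (points, coloured by role) with its 95% limits from limma (lines), at the 4 time points; the grey band runs from the 5th to the 95th percentile of the means of all features. The limits cross 0 for every member but Ork1 on the 2nd day, and 4 means lie outside the band: Shab and nrv3 below it at 12 hrs, Ork1 below it and sei above it on the 2nd day. Shab had no value on 12 hrs replicate 4, a Cy3 array. With a dye term its mean was -0.21. The band holds means without that term, so this value was not placed against it.

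Of the sodium channel genes tipE alone was named on the array. It encodes an auxiliary subunit that raises the current of the main sodium channel. It was measured on 3 arrays each of the 7th and 14th day, with means of 0.07 ± 0.34 and 0.07 ± 0.29 (SD, n = 3 each). Its values ran from -0.23 to 0.44, with 4 of 6 below 0. The sodium channels para and NaCP60E are not among the rows named here.

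Among voltage-gated potassium channels, Sh (Shaker), the fast-inactivating channel of axon terminals, was measured on all 16 arrays. Its means were -0.07 ± 0.39 at 12 hrs, 0.05 ± 0.08 on the 2nd day, -0.03 ± 0.30 on the 7th day and 0.05 ± 0.21 on the 14th day (SD, n = 4 each). It was below 0 on 6 arrays and above 0 on 10. No mean of Sh was larger than the spread between its arrays. A pair of separate cDNAs on the array stand for Sh, and on 9 of the 15 arrays that measured both they had the same sign.
Shab, a delayed rectifier, had -0.94 and -0.75 in 12 hrs replicates 1 and 2 and 0.43 in replicate 3, a mean of -0.42 (SD 0.74, n = 3, limma adjusted p = 1). The arrays with PTZ in Cy5 were low and the one in Cy3 was high. With a dye term, which weighs both orientations alike, the 12 hrs mean of Shab was -0.21. Its 7th day values were -0.07, 0.05, 0.50 and 0.11, with a mean of 0.15 (SD 0.24). The 14th day mean was 0.10 (SD 0.28, n = 4). Over all time points Shab was below 0 on 5 of 7 arrays with PTZ in Cy5 and on 0 of 5 in Cy3.
The gene sei (seizure) encodes an ERG-type channel whose loss makes flies seize in the heat. Its 2nd day values were -0.18, 1.05, 0.09 and 0.07, with a mean of 0.26 (SD 0.54, n = 4, limma adjusted p = 1). Replicate 2 alone was far above 0, and without it the mean was -0.004. Shal was measured on 3 arrays with values from -1.23 to 0.59, and Elk on 3 arrays with values from -0.47 to -0.10, so neither was tested at any time. The potassium channel genes Shaw, eag, Hk, KCNQ, slo and SK are not among the rows named here.

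Ork1, an open rectifier channel that carries potassium leak at rest, had the smallest limma p of any member. Its 2nd day values were -0.53, -0.77, -0.25 and -0.20 in replicates 1 to 4. All 4 arrays were below 0, and the PTZ in Cy5 arrays (mean -0.65) lay below the PTZ in Cy3 arrays (mean -0.23). The mean was -0.44 (SD 0.27, n = 4, 95% limits -0.73 to -0.15, limma adjusted p = 0.647), which is 0.737 times the NF signal on the same relative scale. It lay at percentile 2.16 of all features. Leaving out 1 array at a time gave means of -0.52 to -0.33, with limma adjusted p from 0.655 to 0.999. Over all alternatives the limma adjusted p of Ork1 ran from 0.26 with a dye term to 1 as deposited. In the shared fit of 16 arrays with the replicate block, 0 of 13 members had an unadjusted limma p under 0.05 on the 2nd day, so Ork1 did not pass there. The duplicate spots gave means of -0.42 and -0.46. On single arrays of the study they differed by a median of 0.25 log2 units, against 0.16 over all members, and by up to 1.44.
The other arrays of Ork1 were mostly below 0 as well. At 12 hrs it was measured on replicates 1 and 2 only, at -0.17 and -0.92. The 7th day gave -0.29, -0.15 and 0.07 (mean -0.12, SD 0.18, n = 3). The 14th day gave -0.45, 0.42 and -0.83 (mean -0.29, SD 0.64, n = 3, limma adjusted p = 1). Over the study 10 of its 12 arrays were below 0, 7 of 8 with PTZ in Cy5 and 3 of 4 in Cy3. The mean of Ork1 was below 0 at each of the 3 time points where it was tested. The share of all features whose mean kept 1 sign over time was not counted, so this does not set Ork1 apart. As deposited, with no centring, the 14th day mean was 0.55.
Markers of other head cells were measured on the 2nd day too. Of the 8 listed fat body genes, all on the array, 4 were tested then, with a median of -0.70 and means from -1.25 to 0.08. They included fit, a fat body gene of the female head, at -1.25, with 4 of 4 arrays below 0 (limma adjusted p = 0.0347). Glial markers had 2 of 6 tested, both below 0, with alrm, an astrocyte gene, at -0.37. Muscle markers had 3 of 8 tested, all above 0, with a median of 0.11. The photoreceptor median over 5 of 12 genes was 0.08. The part of these markers in the 2nd day value of Ork1 was not tested.

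**Figure D3:**
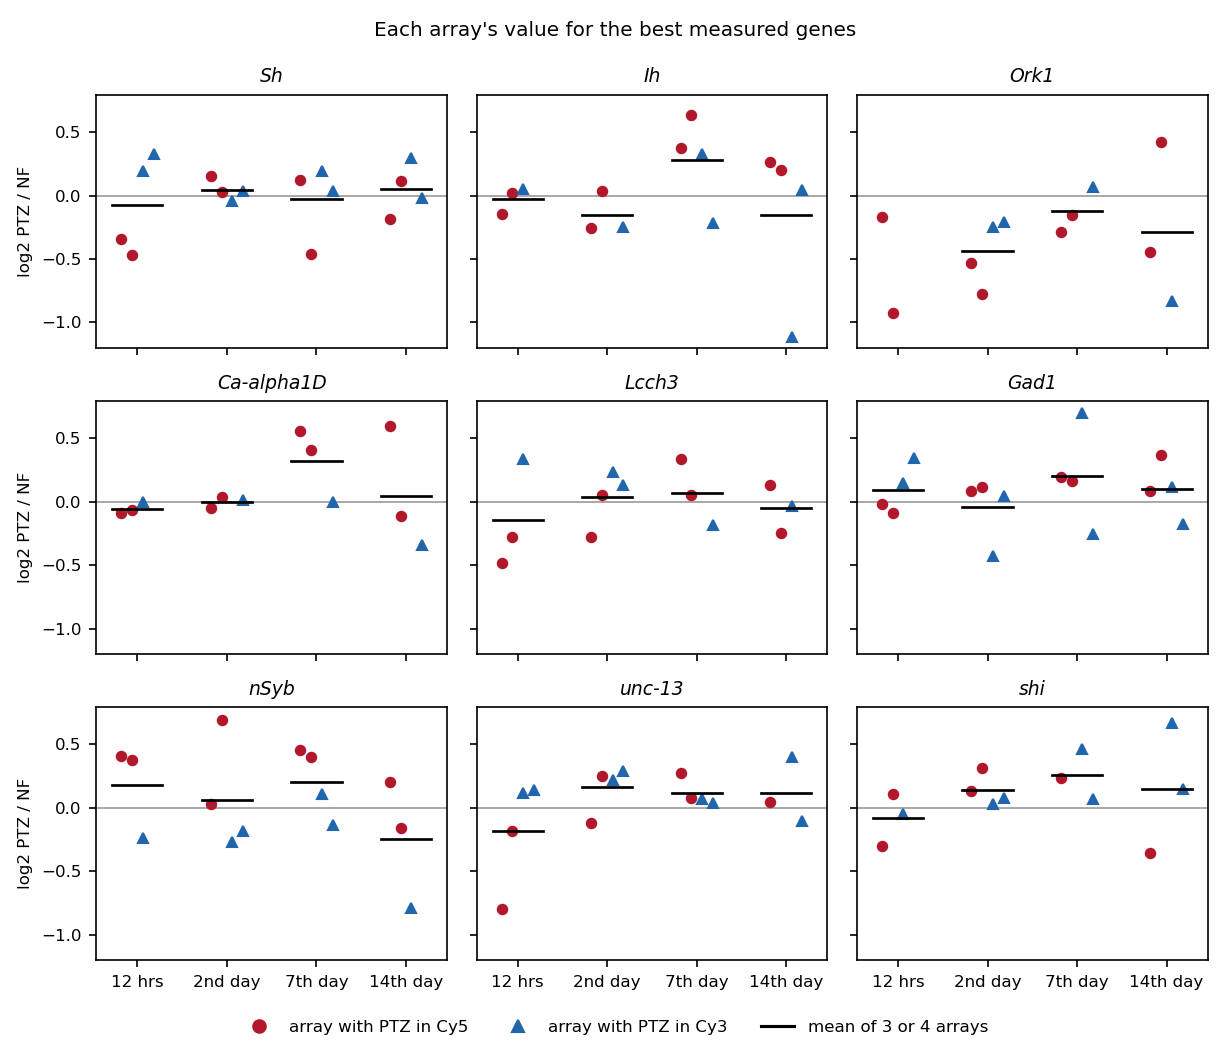
Log2 PTZ over NF on each array (circles, PTZ in Cy5; triangles, PTZ in Cy3) for the 8 members tested at all 4 time points and for Ork1, with bars at the mean where 3 or 4 arrays gave a value. All 4 values of Ork1 lie below 0 on the 2nd day, from -0.77 to -0.20, while the circles of nSyb lie above its triangles at each time, the 14th day included.

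Ih, the channel that opens on hyperpolarisation and paces repeated firing, was near 0 at 12 hrs (mean -0.02, SD 0.10, n = 3). Its 2nd day values were -0.25, 0.04 and -0.25, with a mean of -0.15. It had 0.37, 0.63, 0.33 and -0.21 on the 7th day, with a mean of 0.28 (SD 0.36, n = 4, limma adjusted p = 0.617). The low array was replicate 4, whose labels disagreed, and without it the mean was 0.45 (limma adjusted p = 0.3). The difference of the 7th from the 2nd day was 0.44 (SE 0.21, limma adjusted p = 0.735), and the values of the 2 time points overlapped through replicate 4. The 14th day values were 0.27, 0.20, -1.11 and 0.04, and replicate 3 stood apart.
Irk1, an inward rectifier, had -0.08, -0.13 and -0.43 at 12 hrs, all below 0 (mean -0.21, SD 0.19, n = 3, limma adjusted p = 1). Its 4 values of the 2nd day lay within -0.01 to 0.07. Those ranges did not overlap, and the difference, 2nd day minus 12 hrs, was 0.23 (SE 0.12, limma adjusted p = 0.999). Irk3, of the same family, had -0.12 ± 0.69 on the 7th day and -0.26 ± 0.70 on the 14th day (SD, n = 3 each), the widest spread of any member at these times. Its duplicate spots differed by a median of 0.67 log2 units, against 0.16 over all members. Irk2 was measured on 4 arrays, from -0.15 to 0.17. The sodium leak channel gene na gave -0.26 on 12 hrs replicate 1 and 0.75 on 14th day replicate 1, both with PTZ in Cy5, and has no value on the other arrays.

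Ca-alpha1D encodes the pore of the L-type calcium channel. At 12 hrs it had -0.09, -0.07 and -0.005, all below 0, with a mean of -0.06 (SD 0.05). Its 3 values of the 2nd day lay from -0.05 to 0.04. By the 7th day it had 0.56, 0.41 and 0.00, with a mean of 0.32 (SD 0.29, n = 3, limma adjusted p = 0.589). The array at 0.00 was replicate 4, its only value of that day with PTZ in Cy3. Without it the mean was 0.48 over 2 arrays, both with PTZ in Cy5 (limma adjusted p = 0.307). With a dye term and replicate 4 kept, the mean was 0.24. For this gene the dye and replicate 4 cannot be told apart on that day.
The 7th day values of Ca-alpha1D did not overlap those at 12 hrs, and the difference, 7th day minus 12 hrs, was 0.38 (SE 0.20, limma adjusted p = 0.761). After withdrawal the values were 0.60, -0.11 and -0.35, on both sides of 0. Without replicate 4 of the 7th day, Ca-alpha1D and Ih passed an unadjusted limma p under 0.05, or 2 of 15 members (13.3%), against 15.6% of all features in the same fit. For Ca-alpha1D that fit held only arrays with PTZ in Cy5. The calcium channel genes cac and Ca-alpha1T are not among the rows named here.

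Among GABA receptor genes Lcch3, a subunit related to GABA-gated chloride channels, was tested at all 4 times. At 12 hrs it had -0.49 and -0.28 on the Cy5 arrays of PTZ and 0.34 on the Cy3 array, with a mean of -0.14 (SD 0.43, n = 3). With a dye term this mean was -0.02. The means were 0.03 ± 0.22 on the 2nd day (n = 4), 0.07 ± 0.26 on the 7th day and -0.05 ± 0.19 on the 14th day (SD, n = 3 each). Each of the 4 means was smaller than its SD. GABA-B-R3, a metabotropic receptor gene, was measured on 3 arrays, at 0.06, -0.35 and -0.80, of which -0.80 was on 14th day replicate 3. Grd, GABA-B-R1 and GABA-B-R2 are not among the rows named here.
Gad1, glutamate decarboxylase, makes GABA. It was measured on all 16 arrays and was above 0 on 11. Its means were 0.10 ± 0.19 at 12 hrs, -0.05 ± 0.26 on the 2nd day, 0.20 ± 0.39 on the 7th day and 0.10 ± 0.22 on the 14th day (SD, n = 4 each). The 7th day values were 0.19, 0.17, 0.70 and -0.26, and without replicate 4 the mean was 0.35 (limma adjusted p = 0.358). Replicate 3 of the 2nd day, at -0.43, stood apart from the others, which lay from 0.04 to 0.12.
The array holds a pair of separate cDNAs for Gad1, and they had the same sign on only 3 of the 9 arrays that measured both. Their median difference was 0.50 log2 units. The first averaged -0.03 over 4 arrays of the 7th day and the second 0.33 over 3. Gat, the GABA transporter of astrocyte-like glia, had 4 values, -0.73 and 0.24 at 12 hrs and 0.09 and 0.24 on the 14th day. VGAT is not among the rows named here.

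Of the genes of vesicle release, nSyb, the neuronal vesicle SNARE, had 0.41, 0.38 and -0.24 at 12 hrs (mean 0.18, SD 0.37, n = 3). Its 2nd day values were 0.03, 0.69, -0.27 and -0.19 (mean 0.07, SD 0.44, n = 4). Those of the 7th day were 0.45, 0.40, 0.11 and -0.13 (mean 0.21, SD 0.27, n = 4, limma adjusted p = 0.658). With PTZ in Cy5 nSyb was below 0 on 1 of 8 arrays, and with PTZ in Cy3 on 5 of 6. The withdrawal arrays had 0.20, -0.16 and -0.79, with a mean of -0.25 (SD 0.50, n = 3). The difference, 14th minus 7th day, was -0.46 (SE 0.27, limma adjusted p = 0.681).
Rab3, the small GTPase of synaptic vesicles, ran the opposite way between the dyes. At 12 hrs it had -0.52 and -0.34 in replicates 1 and 2 (Cy5) and 0.32 and 0.28 in replicates 3 and 4 (Cy3), and its mean was -0.06 (SD 0.42, n = 4). Over the study it was below 0 on 6 of 6 arrays with PTZ in Cy5 and on 1 of 6 in Cy3, the exception being 7th day replicate 4. Its 7th day mean was -0.12 ± 0.40 and its 14th day mean 0.11 ± 0.30 (SD, n = 4 each).
The gene unc-13 encodes the factor that primes vesicles for fusion. At 12 hrs it had -0.80, -0.19, 0.12 and 0.14, with a mean of -0.18 (SD 0.44, n = 4), and without replicate 1 the mean was 0.025. Its 2nd day values were -0.12, 0.25, 0.22 and 0.29, with a mean of 0.16 (SD 0.19, n = 4, limma adjusted p = 1). On the 7th day all 4 arrays were above 0, at 0.27, 0.08, 0.07 and 0.04, with a mean of 0.11 (SD 0.11, n = 4, limma adjusted p = 0.767).
The gene shi (shibire) encodes dynamin, which pinches vesicles off during endocytosis, and its heat-sensitive mutants are paralysed. It had 0.14, 0.31, 0.03 and 0.08 on the 2nd day, all above 0, with a mean of 0.14 (SD 0.12, n = 4, limma adjusted p = 1). It had 0.24, 0.46 and 0.07 on the 7th day, also all above 0, with a mean of 0.26 (SD 0.20, n = 3, limma adjusted p = 0.631). At 12 hrs its mean was -0.08 ± 0.21 and on the 14th day 0.15 ± 0.51 (SD, n = 3 each), with values on both sides of 0.
Rop, which binds syntaxin in SNARE assembly, had means of 0.02 ± 0.10 on the 2nd day, 0.00 ± 0.38 on the 7th day and -0.19 ± 0.30 on the 14th day (SD, n = 3 each). Not among the rows named here are Syx1A, Snap25, Snap24, comt, cpx, Syt1, Syt4, Syt7, brp and Syn.

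The neuronal markers were nrv3, a sodium pump beta subunit of neurons, and Appl, the neuronal amyloid precursor-like protein. At 12 hrs nrv3 had -0.73, -0.38, 0.10 and -0.23, with a mean of -0.31 (SD 0.34, n = 4, limma adjusted p = 1). It lay at percentile 3.61 of all features. On the 2nd and 14th day its means were 0.02 ± 0.29 and 0.12 ± 0.32 (SD, n = 3 each). Appl had -0.45 and -0.28 in 7th day replicates 1 and 2 and 0.19 in replicate 4, with a mean of -0.18 (SD 0.33, n = 3, limma adjusted p = 0.753). The labelled tissue was head. Of the 6 neuronal marker and acetylcholine genes listed for it, nrv3 and Appl were measured, and elav, fne, ChAT and VAChT are not among the rows named here. Other genes of neurons were measured too, among them nSyb, Sh, unc-13 and Rab3.

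Medians were then taken over members and by role. The median of all tested members was -0.08 at 12 hrs, 0.02 on the 2nd day, 0.07 on the 7th day and 0.05 on the 14th day, against 0.00, 0.00, 0.00 and -0.01 for all features. Without replicate 1 the 12 hrs median was 0.027 over 14 members, on the other side of 0, and without replicate 4 it was -0.18 over 15. The 7th day median was 0.16 without replicate 4, whose labels disagreed. By role the medians of that day without this array were 0.16 for channels, 0.27 for GABA genes and 0.14 for vesicle release, against 0.07, 0.13 and 0.11 with it. At 12 hrs 10 of 12 members were below 0 (83.3%), against 49.4% of all features. These included all 5 tested channels, with a median of -0.07, and 3 of 4 genes of vesicle release. On the 2nd day 3 of 13 were below 0, against 48.2% of all features, and on the 7th day 5 of 15, against 49.3%. All 4 genes of vesicle release lay above 0 on the 2nd day, at 0.02 to 0.16. On the 14th day 6 of 15 were below 0, against 51.7% of all features.
The 12 hrs medians of the members on the single arrays were -0.32, -0.16, 0.11 and 0.28 in replicates 1 to 4. They were low on both arrays with PTZ in Cy5 and high on both with PTZ in Cy3. The array medians on the 2nd day lay from -0.05 to 0.05, on the 7th day from -0.01 to 0.39 and on the 14th day from -0.08 to 0.07. The markers of other head cells lay on both sides of 0 at 12 hrs. Glial markers were below 0 in 3 of 3 tested genes, with a median of -0.22, and fat body markers in 2 of 2, with a median of -0.29. The lower of these was apolpp, the lipophorin precursor, at -0.50 with all 4 arrays below 0 (limma adjusted p = 1). Muscle markers were above 0 in 3 of 3 tested genes, with a median of 0.155, and photoreceptor markers in 4 of 5, with a median of 0.11. The part of these markers in the members' 12 hrs values was not tested.

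Few members had the same sign on every array that measured them. At 12 hrs these were Ca-alpha1D and Irk1 (2 of 12, against 13.0% of all features). On the 2nd day they were Ork1 and shi (2 of 13, against 13.8%) and on the 7th day shi and unc-13 (2 of 15, against 21.2%). On the 14th day there was none of 15, against 12.8%. The members' shares were 16.7%, 15.4%, 13.3% and 0%.

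The dye of the PTZ sample went with the sign of many features, members among them. Over all features and after turning, Spearman's rho between an array with PTZ in Cy5 and one in Cy3 was -0.44 to -0.32 at 12 hrs and -0.39 to -0.08 on the 2nd day, while within an orientation it was 0.37 to 0.58 and 0.32 to 0.43. Between orientations the 7th day gave -0.08 to 0.34 and the 14th day -0.37 to 0.35. Within an orientation the 7th day gave -0.085 to 0.43 and the 14th day -0.055 to -0.038. On the 14th day, then, arrays of the same orientation did not agree either. At 12 hrs the mean in the 2 orientations had opposite signs in 8 of 12 members, against 70.4% of all features. On the other days the counts were 7 of 13, against 63.2%, 10 of 15, against 47.5%, and 11 of 15, against 56.5%.
At 12 hrs 10 of 12 members were lower with PTZ in Cy5 than with PTZ in Cy3. Their median dye coefficient (PTZ in Cy5 coded 1 and in Cy3 coded -1, beside the mean) was -0.20, against 0.005 over all features. The members of opposite sign there were Sh, Shab, Ih, Lcch3, Gad1, nSyb, unc-13 and Rab3. On the later days the members were divided, with 6 of 13, 7 of 15 and 7 of 15 lower in Cy5.

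**Figure D4:**
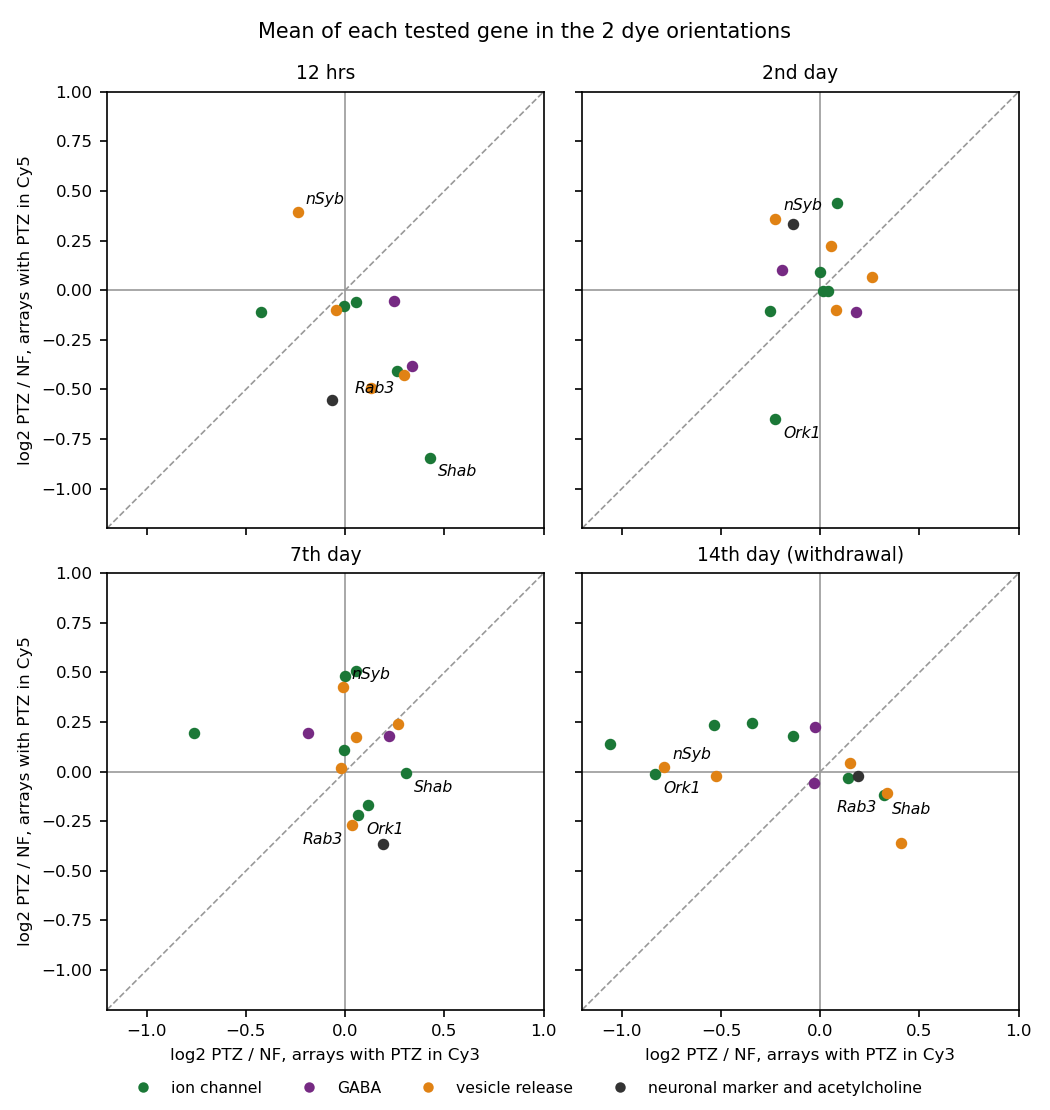
Mean log2 PTZ over NF of each tested member on the arrays with PTZ in Cy5 (vertical axis) against those with PTZ in Cy3 (horizontal axis), at the 4 time points, coloured by role; the dashed line marks equal means. Points in the upper left or lower right changed sign with the dye, 8 of 12 at 12 hrs, against 70.4% of all features. Ork1 on the 2nd day is below 0 in both, at -0.65 and -0.23.

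The spread between arrays was wider for members than for other genes at 12 hrs. The median SD of a tested member was 0.36 at 12 hrs, 0.19 on the 2nd day, 0.30 on the 7th day and 0.30 on the 14th day, against 0.24, 0.18, 0.26 and 0.32 for all features. The narrowest were Irk1 on the 2nd day (SD 0.04) and Ca-alpha1D at 12 hrs (SD 0.05), and the widest Shab at 12 hrs (SD 0.74). On 14th day replicate 3 the absolute value exceeded 0.5 log2 units in 8 of 18 members, with a median of 0.45, against 25.4% of all features, with a median of 0.28. Low there were Ih, Irk3, Ork1, GABA-B-R3, nSyb and Rop, at -1.11 to -0.52, and high were shi and Rab3, at 0.67 and 0.52. On the 3 other arrays of that day 0 to 3 members exceeded it.

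Between time points, members were tested on 8 arrays at a time. The counts called by limma were 0 of 10 for 2nd day minus 12 hrs, 0 of 10 for 7th day minus 2nd day, 0 of 10 for 7th day minus 12 hrs and 0 of 14 for 14th day minus 7th day. Over all features the shares were 0.0225%, 0.0238%, 0.135% and 0.0%. At an unadjusted p under 0.05 there were also 0 members in each, against 2.32%, 6.29%, 6.14% and 7.65% of all features. The values of the 2 time points did not overlap for Irk1 (1 of 10, against 2.93%), for none of 10 members (5.2%), for Ca-alpha1D (1 of 10, against 6.32%) and for none of 14 members (6.02%), in the same order of comparisons.
These differences share arrays, since 12 hrs, the 2nd day and the 7th day each enter more than 1 of them. The largest by size was that of Shab, 7th day minus 12 hrs, at 0.57 (SE 0.32, limma adjusted p = 0.761), and its values overlapped. After withdrawal, 14th day minus 7th day, the differences of the 14 tested members ran from -0.46 for nSyb to 0.23 for Rab3.

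Other genes of excitability and synaptic signalling were counted in the same way. Of 105 listed (channel partners, acetylcholine, glutamate and amine signalling, the sodium pump, the vesicle cycle, and seizure-prone mutants), 49 were named on the array, and 29, 27, 36 and 32 were tested at the 4 time points in order. None passed limma, and at an unadjusted p under 0.05 there were 0, 1, 1 and 0. Pu (Punch), the GTP cyclohydrolase needed to make dopamine, averaged -0.26 on the 2nd day, with all 4 arrays below 0 (SD 0.11, limma adjusted p = 0.717). Gs1, a glutamine synthetase, averaged -0.34 on the 7th day, with all 4 arrays below 0 (SD 0.25, limma adjusted p = 0.589). The medians of these genes were -0.02 at 12 hrs, 0.02 on the 2nd day, -0.01 on the 7th day and 0.04 on the 14th day. Their medians by array at 12 hrs were -0.20, -0.11, 0.14 and 0.25, again low with PTZ in Cy5 and high with PTZ in Cy3.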

How the data were processed

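The authors scanned the arrays, normalized ratios and removed weak, saturated, flagged or uneven spots. The deposited values are log2 ratios of Cy5 over Cy3, with their centring not given in the sources used here. From these values, 53 at a ceiling were set missing, each array was centred on its median, dye swaps were multiplied by -1, and rows of 1 gene were averaged. Rows were named through the platform annotation (6793 genes). Means over at least 3 arrays were tested against 0, and time points against each other, with limma 3.58.1 in R 4.3.3 (lmFit, eBayes, two-sided, Benjamini-Hochberg over all features, adjusted p under 0.19). SAM used all 16 sign changes. The functions were tested on simulated data.

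By rule, values in every array were due for up to 3 members per class and time point with the smallest limma p. Most of these are given so, and the rest, like other members, by range or mean. Other listed genes were due only with 1 sign on every array and an unadjusted limma p under 0.05. Values of Rab3, tipE and others beyond this rule, and of marker genes, were chosen after they were seen. The members and lists were chosen with earlier results of these data known. Alternatives covered centring, dye, threshold, arrays needed, single spot rows, eBayes settings, a shared fit, the replicate block, SAM and each replicate left out. Sequences were not used here.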

Additional observations from a re-analysis of the deposited data

Results flagged for a closer look

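In groups of 4 arrays, 1 array was set far from the other 3 in 2 of 26 groups examined, where chance alone gives about 1 in 20. Ih on the 14th day had -1.11 in replicate 3, and the other arrays lay from 0.04 to 0.27. Gad1 on the 2nd day had -0.43 in replicate 3, and the other arrays lay from 0.04 to 0.12. Both arrays carried PTZ in Cy3.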

How the results depend on the processing

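The count of members called stayed at 0 in all 129 alternative values of the 8 time points and differences, the replicate block included (0 called in each such fit). The smallest limma adjusted p of any member over the alternatives was 0.26. With trend and robust eBayes on the 2nd day the smallest was 1, and with the replicate block Ork1 had no unadjusted p under 0.05 (0 of 13 members). Replicate numbers were not taken as pairs, since deviations of same-numbered arrays did not correlate throughout. Over the differences tested the correlations ran from -0.11 to 0.35. For 2nd day minus 12 hrs they were 0.08 to 0.21. For 14th minus 7th day they were 0.35 and 0.29 in replicates 1 and 2, and -0.11 and 0.01 in replicates 3 and 4. Without 7th day replicate 4 and with a dye term, chosen after seeing the data, 0 of 7 members and 174 of 3906 features were called.

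Of 144 class medians recomputed, 132 stayed within the spread between arrays. As deposited, with no centring, the median of all members was 0.33 on the 7th day (channels 0.33) and 0.36 on the 14th day (channels 0.37, GABA genes 0.57, vesicle release 0.36). With PTZ in Cy5 alone the GABA median at 12 hrs was -0.38 over 3 genes, against -0.02 over the 2 tested. For all members on the 14th day the median was -0.017 in Cy5 over 22 members and -0.030 in Cy3 over 19. Against these stood 0.054 over the 15 tested members, so the members differ as well as the arrays. With 1 array left out, the median of all members lay between -0.179 and 0.027 (12 hrs, above 0 only without replicate 1), -0.004 and 0.074 (2nd day), 0.033 and 0.160 (7th day) or -0.092 and 0.075 (14th day), and that of the GABA genes on the 14th day between -0.017 and 0.17. A gene needed fewer arrays in these fits, so more members could enter. The 0.17, without replicate 4, was over 3 genes against 2, as Gat, measured on 2 arrays, entered.

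Of 300 values recomputed for named members, 31 changed sign, none of a called gene. As deposited these were, on the 7th day, shi at -0.033 and Appl at 0.27, and on the 14th day Ork1 at 0.55, Irk3 at 0.58, Ih at 0.096, Lcch3 at 0.79, nSyb at 0.59 and Rop at 0.64. A mean as deposited holds the average of the array medians over the arrays with a value. After turning, these medians were 0.72, 1.38, -0.84 and -0.75 in 7th day replicates 1 to 4. On the 14th day they were 1.57, 0.93, 0.008 and -1.52. Ork1, Irk3, Lcch3, nSyb and Rop had no value on 14th day replicate 4. In 1 of a gene's spot rows, Gad1 was at -0.080 at 12 hrs, sei at -0.025 and Lcch3 at -0.007 on the 2nd day, Gad1 at -0.17 and Lcch3 at -0.14 on the 7th day, and Irk3 at 0.014, Ih at 0.004 and Gad1 at -0.066 on the 14th day. With 1 array left out, the means at 12 hrs ran from -0.38 to 0.030 for Lcch3, -0.29 to 0.025 for unc-13 and -0.18 to 0.030 for shi. Those of the 2nd day ran from -0.004 to 0.41 for sei, -0.099 to 0.083 for Gad1, -0.032 to 0.14 for Lcch3, -0.14 to 0.18 for nSyb and -0.14 to 0.14 for nrv3. For Lcch3 on the 7th day they ran from -0.067 to 0.19. Those of the 14th day ran from -0.50 to 0.14 for Irk3, -0.29 to 0.17 for Ih, -0.14 to 0.049 for Lcch3, -0.48 to 0.021 for nSyb, -0.022 to 0.19 for Rab3 and -0.064 to 0.23 for nrv3. The cause of the changes in single spot rows or with 1 array left out was not tested.

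With 4 arrays a time point, the number of arrays limits the precision, and 28 of 52 listed genes are not among the rows named here.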
